A study of Sus scrofa with 5 samples.

Results

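Enteroendocrine cells (EECs) of the piglet cecum were taken as the barcodes with at least 200 detected genes, at least 1 unique molecular identifier (UMI, the mark of a single captured RNA molecule) of CHGA or CHGB, and at least 5 UMIs summed over CHGA, CHGB, PYY, SST and GCG. This gave 375 EECs among 72701 barcodes with at least 200 genes, which is 0.516% of them. The cells were thus chosen by measured counts of these 5 genes, whose levels are given below as a description only. The single-cell RNA-seq data were 5 10x Genomics libraries of cecal cells from Large White piglets at birth (d0) and at 1, 7, 14 and 21 days of age (d1, d7, d14 and d21). Each library held the mixed cells of 5 piglets, which the labels give as male and which had been fed maternal milk alone without treatment. Each age was 1 library, so age and library cannot be told apart, no test between ages was possible, and the intervals given for shares and levels cover counting error only. After the gene filter the libraries held 10272 to 16892 barcodes and 47921183 to 91863866 counts.

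EECs are rare epithelial cells, scattered among absorptive, goblet and tuft cells, that store peptide hormones or serotonin in dense granules and release them when they sense luminal contents. Chromogranins A and B, encoded by CHGA and CHGB, are granule proteins shared by nearly all of these cells. In the large intestine the best known kinds are L cells, which make peptide YY (PYY) and the glucagon-like peptides cut from the GCG precursor, D cells, which make somatostatin (SST), and enterochromaffin cells, which make serotonin through the enzyme TPH1 and often the tachykinin precursor TAC1. In Sscrofa11.1, RefSeq places CHGA on chromosome 7 at 114345542 to 114357799, CHGB on chromosome 17 at 14747282 to 14761995, PYY on chromosome 12 at 19190703 to 19208373, SST on chromosome 13 at 125337560 to 125338742 and GCG on chromosome 15 at 68800557 to 68810268.

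Most EECs lay well inside the threshold. The rule genes summed to a median of 76 UMIs per cell and a maximum of 4484, and 331 of the 375 had 20 or more. Just inside the threshold were 23 EECs with 5 to 9 UMIs, and just outside were 32 barcodes with 3 or 4. Epithelial identity, which the rule did not use, was read from EPCAM, KRT8, KRT18, KRT19 and CDH1 (at least 3 UMIs from at least 2 of these genes), and 344 EECs (91.7%) met it. The rules used here for goblet and tuft cells, with higher limits of 5 and 4 UMIs, were met by 19 and 2 EECs. At least 2 UMIs over 9 goblet marker genes were, however, seen in 165 EECs. For 11 tuft marker genes this held in 79 EECs. The median EEC carried 3263 UMIs and the median kept barcode 3016. In the d14 and d21 libraries a single EEC supplied 60.8% and 37.2% of all EEC counts, so sums at these ages rest largely on those cells. Libraries shared 37 to 79 barcode sequences per pair, and none of the shared sequences was an EEC in both. Doublets were not removed.

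Nearly all EECs came from the earliest ages. The d0 library held 154 EECs among 15218 barcodes, or 1.01% (exact Clopper-Pearson 95% interval 0.859 to 1.18). The d1 library held 179 among 14142, or 1.27% (1.09 to 1.46). The d7, d14 and d21 libraries held 15, 11 and 16 EECs, which were 0.146% (0.0818 to 0.241), 0.0680% (0.0339 to 0.122) and 0.0947% (0.0541 to 0.154) of their barcodes. The intervals of d0 and d1 overlapped each other and lay above those of the 3 later ages, which overlapped among themselves.

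The epithelium made up 64.2% of barcodes at d0, 46.3% at d1, 9.40% at d7, 2.25% at d14 and 8.91% at d21. Within epithelial barcodes EECs were 1.43% at d0 (1.21 to 1.69), 2.52% at d1 (2.15 to 2.93), 1.55% at d7 (0.872 to 2.55), 2.47% at d14 (1.14 to 4.64) and 0.997% at d21 (0.559 to 1.64). By this denominator the order of the ages was another: d1 lay above d0 and d21, and the other pairs had overlapping intervals. The share of barcodes called epithelial, like that of EECs, was lower at d7, d14 and d21 than at d0 and d1. From d0 to d1 the epithelial share fell, while the EEC shares per barcode had overlapping intervals. The part of the epithelial share in the fall per barcode was not tested beyond this change of denominator. At d0, where the median barcode had 35.7% mitochondrial counts, EECs were 1.99% (1.65 to 2.37) of the barcodes with under 20%. At d1 they were 1.42% (1.21 to 1.66) of such barcodes, so the order of d0 and d1 depended on this filter.

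**Figure D1:**
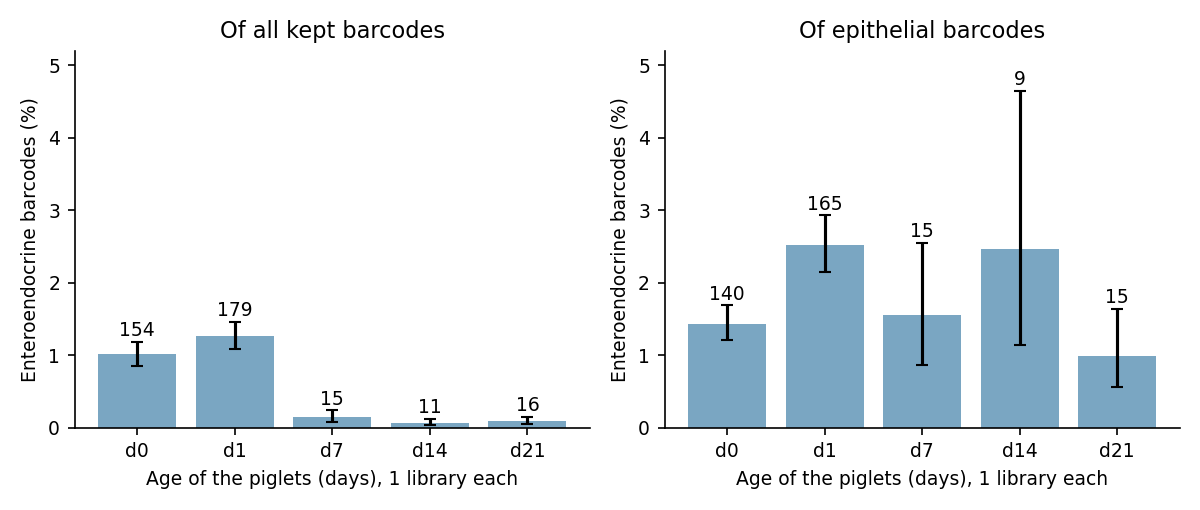
EECs as a percentage of all barcodes with at least 200 genes (left) and of epithelial barcodes (right) at d0, d1, d7, d14 and d21 (vertical axis, percent), as bars with exact 95% Clopper-Pearson intervals, which cover counting error only; the number above a bar is its EECs. Per barcode, d0 (1.01%) and d1 (1.27%) stand above the later ages, while per epithelial barcode the 5 libraries lie between 0.997% and 2.52%.

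Transcripts of other lineages were found in many of the late EECs. At least 2 UMIs over 16 immune marker genes were seen in 4 of 154 EECs at d0, 13 of 179 at d1, 8 of 15 at d7, 9 of 11 at d14 and all 16 at d21. The summed level of this list in EECs was 0.530, 3.74, 23.4, 4.13 and 9.73 UMIs per 10000 counts from d0 to d21, against 1.14, 3.81, 17.7, 19.99 and 39.4 in the other epithelial barcodes. In EECs 7, 14, 11, 12 and 11 of the 16 immune genes had a UMI at these ages. PTPRC, the pan-leukocyte marker, had 9, 32, 28, 10 and 16 UMIs over all EECs of these ages. Stromal markers (8 genes) reached 2 UMIs in 46 EECs at d1 and in 0, 0, 1 and 2 EECs at d0, d7, d14 and d21. With EECs carrying immune or stromal transcripts left out, an alternative chosen after the data were seen, the shares per barcode were 0.986%, 0.891%, 0.0681%, 0.0124% and 0%. The limit of 2 UMIs was applied to EECs alone, without adjustment for depth, and the denominator kept all barcodes. These values are therefore not shares among barcodes free of such transcripts. The part of immune and stromal transcripts in the other results was not tested.

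Free RNA was gauged in T cell barcodes, which should lack hormone genes. Cells with under 1000 UMIs were left out, among them 16, 19, 0, 0 and 2 EECs from d0 to d21, and the others were thinned to 1000 UMIs. CHGA, which chose the cells, was then detected in 83.3% of the EECs at d0, 86.2% at d1, 93.3% at d7, 90.9% at d14 and 85.7% at d21. In T cell barcodes it was detected in 0.316%, 0.503%, 0.0372%, 0.0185% and 0.0298%. PYY was detected in 29.0%, 18.8%, 26.7%, 27.3% and 28.6% of these EECs, against 0.949%, 3.52%, 0.409%, 0% and 0.0746% of T cell barcodes. TPH1, which the rule did not use, was detected in 42 of 138 EECs (30.4%) at d0 and 61 of 160 (38.1%) at d1, and in 0 of 316 and 0 of 199 T cell barcodes. At d7, d14 and d21 it was detected in 46.7%, 45.5% and 7.14% of EECs. The median T cell barcode held 2164, 2832, 4414, 4414 and 4212 UMIs from d0 to d21 before thinning, and the median EEC 3187.5, 3010, 6852, 8879 and 6395.5.

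The hormone genes split the EECs into classes. The SST class (at least 3 UMIs of SST, and more SST than PYY plus GCG) held 44 cells, the PYY/GCG class (at least 3 UMIs of PYY plus GCG, and no less than SST) held 72, and the remaining class, with neither, held 259, or 69.1%. Their median depths were 3859.5, 3153 and 3246 UMIs. The SST class was 13.6% of EECs at d0 (8.64 to 20.1), 11.7% at d1 (7.41 to 17.4), 1 of 15 at d7, 1 of 11 at d14 and 0 of 16 at d21, which allows a share of up to 20.6%. The PYY/GCG class was 22.1% (15.8 to 29.5), 14.5% (9.71 to 20.6), 26.7% (7.79 to 55.1), 27.3% (6.02 to 61.0) and 31.2% (11.02 to 58.7) from d0 to d21. The remaining class was the most frequent in every library, at 63.6% to 73.7%, although with a limit of 1 UMI it and the PYY/GCG class each held 5 of 11 EECs at d14. For each class, the intervals of all 5 ages overlapped.

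PYY and GCG were found in the same cells. Of 50 EECs with at least 3 UMIs of GCG, 49 also had at least 3 of PYY, whereas 49 of the 98 EECs with PYY had no such GCG count. SST and GCG were almost apart, with 1 EEC positive for both among 45 with SST and 50 with GCG. SST and PYY were not, since 29 of the 45 EECs with SST also had at least 3 UMIs of PYY. In the SST class PYY stood at 48.0 UMIs per 10000 counts, in the PYY/GCG class at 966 and in the remaining class at 0.07. PYY counts were used to make the classes, so the class rule itself sets part of this order.

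TPH1, the rate-limiting enzyme of serotonin synthesis in the gut (chromosome 2, 41075623 to 41109005), marked a part of the remaining class. At least 3 UMIs of TPH1 were seen in 120 EECs, of which 2 also had PYY or GCG and 1 had SST at that level. The remaining class held 259 cells, so many of its cells did not reach this TPH1 level. TAC1, the precursor of substance P (chromosome 9, 77197403 to 77206529), was seen in 49 EECs, and 30 of these had TPH1. UCN3, which encodes the peptide urocortin 3 (chromosome 10, 65491231 to 65495879), was seen in 48, of which 33 had PYY or GCG. NTS, the neurotensin precursor (chromosome 5, 96261299 to 96272947), was seen in 10, of which 9 had PYY or GCG.

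**Figure D2:**
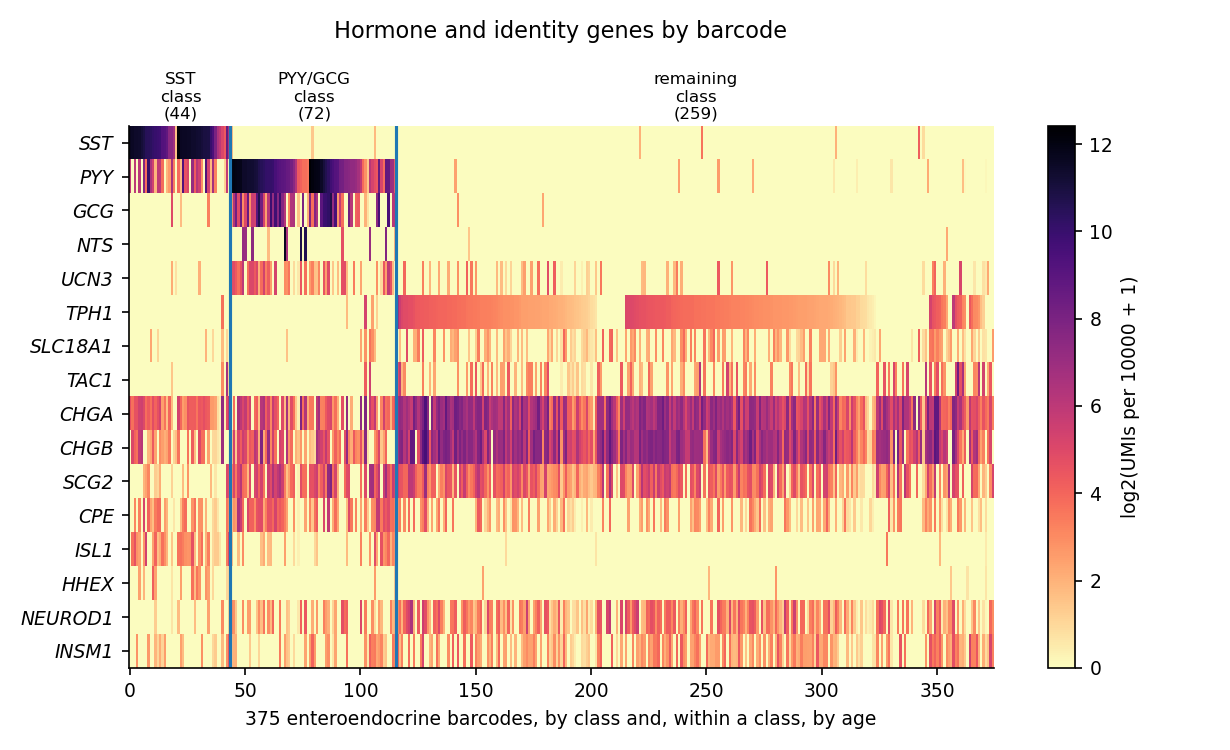
Levels of 16 hormone and identity genes in each of the 375 EECs, with cells in columns, ordered by hormone class (44 SST, 72 PYY/GCG and 259 remaining cells), then by age and by SST, PYY or TPH1, and colour giving log2 of UMIs per 10000 plus 1. GCG is drawn in cells that also carry PYY, PYY extends into the SST class, and TPH1 lies almost wholly in the remaining class.

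Requiring CHGA or CHGB left out hormone-positive barcodes. In all, 114 barcodes had at least 5 UMIs of the rule genes and none of CHGA or CHGB, 22 at d0, 54 at d1, 37 at d7, 0 at d14 and 1 at d21. At d1, 49 of the 54 had PYY, 31 had GCG and 14 had SST, and their median depth was 4380.5 UMIs. They held 14.2% of all PYY, 39.4% of all GCG and 18.1% of all SST counts of that library. The 22 at d0 held 10.9% of the PYY and 26.5% of the GCG. With these barcodes included, a choice made after the data were seen, the EEC share was 1.65% at d1 and 0.506% at d7, where 34 of the 37 were barcodes with a high share of globin transcripts. The PYY/GCG and SST classes above thus hold only barcodes with CHGA or CHGB. Whether the barcodes without them are EECs was not tested.

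The levels of the hormone genes in EECs differed widely between libraries. CHGA stood at 45.6 UMIs per 10000 counts at d0 (exact Poisson 95% interval 44.2 to 47.0), 36.9 at d1 (35.8 to 38.1), 38.1 at d7 (34.6 to 41.8), 27.3 at d14 (24.95 to 29.8) and 16.7 at d21 (14.9 to 18.6). CHGB stood at 57.3, 43.6, 42.4, 17.9 and 14.0. These genes chose the cells, and both had their highest summed level at d0 and their lowest at d21. As a mean of the levels of single EECs, CHGA was 85.3, 74.7, 87.1, 63.4 and 20.3, again lowest at d21.

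PYY stood at 215 (212 to 218) at d0, 164 (162 to 167) at d1, 12.2 (10.3 to 14.4) at d7, 7.03 (5.88 to 8.35) at d14 and 33.5 (31.0 to 36.2) at d21. A single EEC supplied 72.7% of the PYY counts at d21. GCG stood at 37.1, 17.2, 12.1, 8.32 and 7.76, and all GCG counts at d7 and at d14 came from 1 cell each. Averaged over single EECs, GCG was 50.2, 40.6, 12.1, 68.4 and 53.5, so its order over the ages depends on how cells are weighted. SST stood at 104 (102 to 107) at d0, 120 (118 to 122) at d1, 30.0 at d7, 4.19 at d14 and 0 at d21, where a count of 0 allows 0.156. At d7, 349 of the 352 SST counts came from 1 cell, and at d14 all 78 did. Summed PYY and SST were therefore higher at d0 and d1 than later, with the later values resting on few cells.

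The serotonin and tachykinin genes did not follow that order. TPH1 stood at 3.61 (3.22 to 4.02), 3.50 (3.16 to 3.87), 7.34 (5.87 to 9.07), 6.76 (5.64 to 8.05) and 2.45 (1.80 to 3.25) from d0 to d21, with a UMI in 87, 112, 10, 6 and 7 EECs. TAC1 stood at 1.40, 1.87, 12.7, 27.8 and 14.3, so its d7, d14 and d21 levels lay above d0 and d1. A single EEC gave 71.6% of the TAC1 counts at d14 and 71.3% at d21. Averaged over single EECs, TAC1 was 2.21, 3.25, 14.8, 44.0 and 9.32. TAC1 had a UMI in 41 of 154 EECs at d0 and 45 of 179 at d1, and in 7 of 15, 6 of 11 and 6 of 16 at the later ages, when EECs were deeper.

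NTS was carried by few cells. It stood at 25.4 (24.4 to 26.5) at d0, 0.0182 at d1, 2.65 at d7, 0 at d14 and 12.0 at d21. At d0, 63.6% of the 2256 NTS counts came from 1 EEC, and at d21 99.1% of 231 did. UCN3 stood at 2.48, 0.600, 1.28, 1.56 and 1.35. SCG2, which encodes the granule protein secretogranin II (chromosome 15, 125420773 to 125426303), was present at every age at 9.33, 8.19, 25.4, 6.60 and 15.8, with a UMI in 130, 132, 12, 7 and 13 EECs.

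Other hormone precursors were sparse. INSL5, encoding an insulin-like peptide known from colonic L cells, had 40 UMIs in 7 EECs, 29 of them at d0 and 11 at d1. CCK (cholecystokinin) had 32 UMIs, SCT (secretin) 32, MLN (motilin) 32, GAST (gastrin) 21, NPB 26, PENK (proenkephalin) 59, CRH 57 and POMC 107, and ADM (adrenomedullin) had 603. Of the CRH counts 52 were at d1, where 82.7% came from 1 cell, and of the PENK counts 58 were at d0, where 74.1% did. GIP, VIP, GAL, NMU, CARTPT and IAPP had no UMI in any EEC, which at 3 counts allows 0.0121 per 10000 counts over all EECs.

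**Figure D3:**
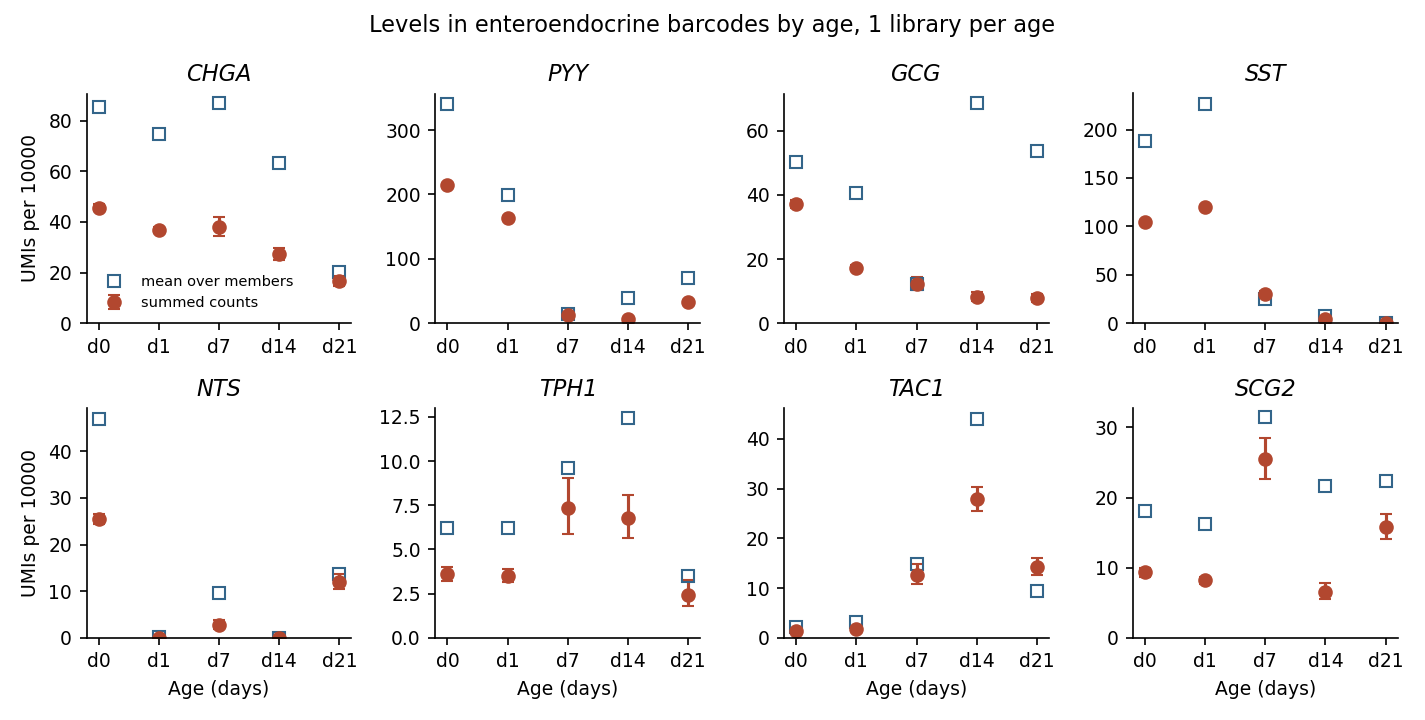
Levels of CHGA, PYY, GCG, SST, NTS, TPH1, TAC1 and SCG2 in EECs at each age (vertical axes, UMIs per 10000 counts), as summed counts with exact Poisson 95% intervals for counting error (circles) and as means over single EECs (squares). PYY and SST are high at d0 and d1 and TAC1 at d7, d14 and d21, where points rest on 11 to 16 cells.

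EECs were next compared with the rest of the epithelium, the question being which genes the rule had not used set these cells apart. Counts were summed per library and cell class and tested with edgeR's quasi-likelihood test with library as a block, over 9549 genes, at a Benjamini-Hochberg adjusted p under 0.05. The comparison classes were 16946 other epithelial barcodes, 1767 goblet barcodes and 215 tuft barcodes. Barcodes with PTPRC were not left out of these classes. Of all epithelial barcodes, those without a PTPRC UMI were 9437 of 9773 at d0 and 5987 of 6549 at d1. At d7, d14 and d21 they were 535 of 966, 233 of 364 and 976 of 1505. Against the other epithelial barcodes 716 genes were higher in EECs (7.50% of those tested) and 692 lower (7.25%). Rule genes of every class are left out of the lists that follow, and the median log2 fold change of all genes was -0.08. Of the 9549 genes 695 passed the filter on low counts only with the help of the EEC sums, among them 9 of the 11 granin and processing genes tested, 12 of the 18 transcription factors, 14 of the 18 excitability genes, 5 of the 7 hormone precursors and 2 of the 8 monoamine genes. The filter thus favours genes that are higher in EECs, so the counts and medians of these lists, against all 3 comparison classes, describe the genes that could be tested and are no support for a direction of the list.

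Tested genes of hormone storage and maturation were mostly higher in EECs. Of 14 granins and processing genes, 11 were tested, 10 were higher (CPE, PAM, PCSK1, PCSK1N, PTPRN2, SCG2, SCG3, SCG5, SCGN and VGF) and 1 did not pass, with a median log2 fold change of 6.24. PCSK1, the prohormone convertase that cuts proglucagon into glucagon-like peptides (chromosome 2, 103004794 to 103050707), stood at 3.23, 2.54, 5.04, 3.65 and 4.01 UMIs per 10000 counts in EECs from d0 to d21, against at most 0.00407 in other epithelial barcodes. Its log2 fold change was 10.39 (SE 0.41, adjusted p = 1.3e-10), with no overlap between the classes. For SCG2 the difference was 9.75 (SE 0.33, adjusted p = 1.8e-11), and other epithelial barcodes had at most 0.0158.

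Genes of serotonin synthesis and storage were higher too. Of 12 monoamine genes, 8 were tested and 4 were higher, TPH1, DDC, SLC18A1 and GCH1, with a list median of 1.95. TPH1 was higher by 10.03 (SE 0.39, adjusted p = 1.1e-12) in the log2 fold change, its level in other epithelial barcodes being at most 0.00598. SLC18A1, which loads monoamines into granules, was higher by 8.45 (SE 0.48) and GCH1, which makes the cofactor of TPH1, by 2.94 (SE 0.36). DDC, the decarboxylase that completes serotonin synthesis, was higher by 2.91 (SE 0.29) and was present in other epithelial barcodes too, at 0.205 to 0.760 against 2.57 to 4.78 in EECs.

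Among 24 hormone precursors outside the rule, 7 were tested, 4 were higher (TAC1, UCN3, NTS and POMC) and 3 did not pass, with a median of 3.15. TAC1 was higher by 10.36 (SE 0.82, adjusted p = 4.0e-07) and UCN3 by 8.14 (SE 0.43, adjusted p = 3.5e-09). POMC, the pro-opiomelanocortin precursor, was higher by 1.76 (SE 0.25, adjusted p = 5.5e-05), at 0.208 to 0.552 in EECs against 0.0734 to 0.152. The NTS call (5.66, SE 1.62, adjusted p = 0.0346) was lost without d0 (5.51, adjusted p = 0.090), without d7 (6.01, adjusted p = 0.054) or without d21 (4.96, adjusted p = 0.13). Other epithelial barcodes held 2851 NTS counts at d0, most of them (2764) in 1 barcode without CHGA or CHGB.

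Of 24 listed transcription factors of the EEC lineage, 18 were tested, 15 were higher and none lower, with a median of 6.99. NEUROD1, which acts late in EEC differentiation (chromosome 15, 87175629 to 87179953), stood at 3.41, 3.82, 3.33, 1.72 and 1.87 in EECs and at most 0.00431 in other epithelial barcodes, a log2 fold change of 10.05 (SE 0.24, adjusted p = 2.6e-13). ISL1 was higher by 9.32 (SE 0.45), PAX4 by 8.78 (SE 0.49) and LMX1A, a factor of enterochromaffin cells, by 8.72 (SE 0.50). INSM1 stood at 1.75, 2.21, 7.94, 3.87 and 3.96. NEUROG3, the factor that starts the EEC programme in progenitors, had only 18 UMIs over all EECs.

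Of 28 listed genes of electrical excitability and regulated secretion, 18 were tested and 17 were higher, with a median of 5.79. They included PCLO (9.10, SE 0.27), CADPS (8.77, SE 0.49), SNAP25 (8.73, SE 0.54) and CPLX2 (8.36, SE 0.59), which act in vesicle docking and release, and the potassium channel KCNH6 (8.17, SE 0.62). Nutrient, bile acid and hormone receptors were mostly too sparse, with 2 of 27 tested. Of these SLC5A1, the sodium-glucose cotransporter, was lower by -0.86 (SE 0.25, adjusted p = 0.0270), a call lost without d0 (-1.11, adjusted p = 0.061), without d1 (-0.66, adjusted p = 0.15) or without d14 (-0.83, adjusted p = 0.068).

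Notch pathway genes showed little change, with 2 of 8 tested higher and a median of -0.02. HES6 was higher by 1.29 (SE 0.26, adjusted p = 0.00235). The call of the Notch ligand DLL1 (2.27, SE 0.65, adjusted p = 0.0259) was lost without d0, d7 or d14 (adjusted p = 0.062, 0.063 and 0.066) and without the deepest EEC of each library (adjusted p = 0.056).

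Absorptive cell markers were lower in EECs. Of 16 genes 11 were tested, 7 were lower (APOA4, APOB, FABP1, PRAP1, SI, SLC26A3 and TMIGD1) and none higher, with a median of -1.69. PRAP1 stood at 8.64, 2.70, 0.0854, 0 and 0 in EECs and at 24.4, 8.22, 2.23, 0.0691 and 0.207 in other epithelial barcodes, a log2 fold change of -2.04 (SE 0.43, adjusted p = 0.00354). APOA4 and APOB fell by 1.71 (SE 0.33) and 1.92 (SE 0.43), and both calls were lost without d1 (adjusted p = 0.19 and 0.16). DESeq2 gave neither call, with APOA4 turned to 0.72 (adjusted p = 0.73) and APOB at -0.68 (adjusted p = 0.69). For FABP1 (-2.84) the call was lost without d0 (adjusted p = 0.078), d14 (adjusted p = 0.092) or d21 (adjusted p = 0.058). For TMIGD1 (-2.12) it was lost without d0 (adjusted p = 0.070), d1 (adjusted p = 0.054) or d14 (adjusted p = 0.0504).

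The stem and cell cycle list had 1 of 10 tested genes lower and none higher, with a median of -0.52. That gene was the mitotic cyclin CCNB1 (-1.23, SE 0.40, adjusted p = 0.0442), a call lost without d0, d1, d7 or d14 (adjusted p = 0.068, 0.17, 0.089 and 0.21) and without the deepest EECs (adjusted p = 0.13). Of 13 immune genes tested 3 were lower, C1QC, CD14 and TYROBP, with a median of -1.11 and calls that were lost without d0 (adjusted p = 0.090, 0.059 and 0.085). What part immune transcripts in the other epithelial barcodes had in these falls was not tested. Of 5 stromal genes tested none passed in either direction, with a median of -0.86, nor did the 1 neural gene tested.

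**Figure D4:**
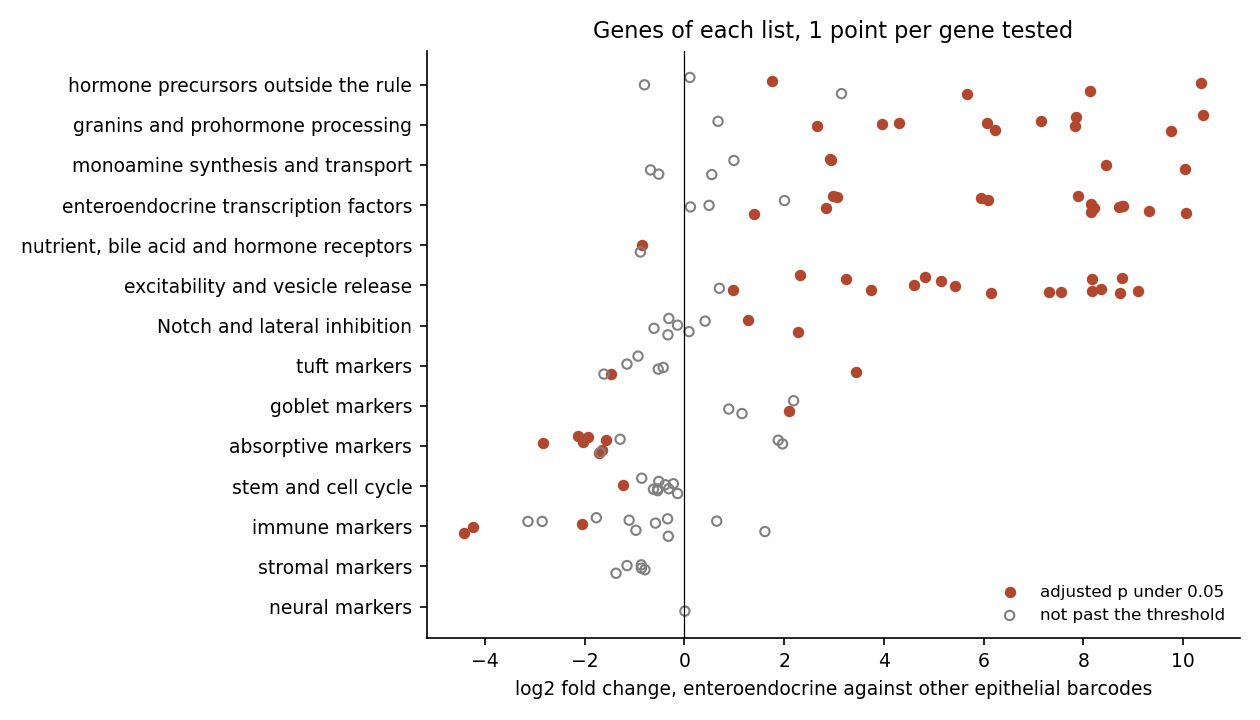
Log2 fold changes (horizontal axis) in EECs against other epithelial barcodes for the tested genes of each list, from edgeR's quasi-likelihood fit with library as a block. Each point is a gene, filled where the adjusted p was under 0.05. Granin and processing genes (median 6.24), transcription factors (6.99) and excitability genes (5.79) lie to the right of 0 and most absorptive markers (median -1.69) to the left.

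The study named SOX4, SH2D7, KRT18 and TRPM5 as EEC markers from these same samples, so they are not independent evidence of a direction. It also named CHGA as an EEC marker and stained its protein at each age. CHGA is part of the rule used here and was not tested. KRT18 served to define epithelial barcodes and was not tested. Of the other 3, TRPM5, a cation channel best known from tuft cells, was higher (3.45, SE 0.60, adjusted p = 6.3e-04), while SOX4 (0.12, adjusted p = 0.799) and SH2D7 (-1.61, adjusted p = 0.459) did not pass. TRPM5 stood at 1.07, 0.882, 0.0854, 0 and 0 in EECs from d0 to d21 and at 0.0832, 0.0507, 0.0572, 0.00863 and 0.0202 in other epithelial barcodes. It was thus above the other epithelium in 3 of 5 libraries, with 1 count at d7 and none at d14 and d21, and DESeq2 gave 2.36 (adjusted p = 0.076). In tuft barcodes TRPM5 stood at 0.342, 0.378, 0.957, 0.688 and 1.35.

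Outside the lists, the 10 largest rises were those of SYT4, SLC38A11, NELL2, CERKL, CDK5R2, DIRAS3, PAPPA2, CAMK2N2, LUZP2 and RPRML, with log2 fold changes from 10.43 to 8.21. SYT4 encodes a synaptotagmin of secretory vesicles, and stood at 0.688, 0.991, 0.256, 0.107 and 0.260 in EECs, with 4 UMIs in all among the other epithelial barcodes. PAPPA2 encodes a protease of insulin-like growth factor binding proteins. Among the falls named by their fitted change were C1QB (-4.51), RSAD2 (-4.42), C1QA (-3.99) and LOC100153139 (-3.58). The same rule named AKR1C1, which had no count in EECs and was at least 1.97-fold lower there. Of these 5 only RSAD2 (adjusted p = 0.00625), an interferon-induced gene, kept its call without any single library, while without d0 C1QB, C1QA, LOC100153139 and AKR1C1 had adjusted p = 0.054, 0.066, 0.11 and 0.090. What part immune transcripts in the other epithelial barcodes had in these falls was not tested.

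Against tuft barcodes, the other chemosensory type, 411 genes were higher in EECs (4.30%) and 418 lower (4.38%), with a median over all genes of -0.04. Higher were 10 of 11 granin and processing genes, 12 of 18 transcription factors, 17 of 18 excitability genes, 4 of 8 monoamine genes and 4 of 7 hormone precursors. Many were at 0 in all tuft barcodes, so that only bounds can be given, from a floor of 3 counts over the group: SCG2 was higher by at least 955-fold, TAC1 by at least 495-fold, NEUROD1 by at least 323-fold, PCSK1 by at least 299.8-fold and INSM1 by at least 249-fold. With such genes at their bound the list medians were 6.14 for granins and processing, 4.88 for transcription factors and 4.97 for excitability.

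Of 7 tested tuft markers 5 were lower in EECs than in tuft barcodes and none higher. Tuft barcodes were chosen by other tuft genes, and markers high in them can pass the filter through the tuft sums alone. This count is therefore no support for a direction of the list. SH2D7 was lower by -6.96 (SE 0.75, adjusted p = 4.4e-06), with 2 UMIs over all EECs against 0.499, 0.610, 2.03, 1.34 and 3.29 UMIs per 10000 counts in tuft barcodes. The leukotriene enzymes LTC4S (-4.07) and ALOX5 (-3.05) and the phospholipase PLCG2 (-3.56) were lower too, and these 4 calls held without any single library.

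Against goblet barcodes 718 genes were higher (7.52%) and 661 lower (6.92%), with a median over all genes of -0.05. The 4 goblet markers tested were all lower in EECs, namely the lectin REG4 (-4.86, SE 0.89), the goblet factor SPDEF (-4.42, SE 0.51), AGR2 (-4.35, SE 0.69) and the trefoil peptide TFF3 (-4.00, SE 0.71). Goblet barcodes were chosen by other goblet genes, and markers high in them can pass the filter through the goblet sums alone. The count of goblet markers is therefore no support for a direction of the list. Of the granin and processing genes 10 of 11 were higher, of the transcription factors 15 of 18 with ATOH1 lower, and of the excitability genes 17 of 18. Of 13 immune genes tested 2 were higher in EECs than in goblet barcodes. CD3G (1.68, adjusted p = 0.0364) lost its call without d1 (adjusted p = 0.096) or d7 (adjusted p = 0.23), and PTPRC (1.19, adjusted p = 0.0459) lost it without d0, d1 or d7 (adjusted p = 0.11, 0.22 and 0.22). TFF3 was, on the other hand, higher in EECs than in the other epithelial barcodes by 2.10 (SE 0.65, adjusted p = 0.0370), at 0.890, 9.68, 4.18, 12.7 and 2.45 against 0.555 to 1.42, a call lost without d1 (1.77, adjusted p = 0.16), d14 (1.68, adjusted p = 0.13) or d21 (2.34, adjusted p = 0.057). In goblet barcodes TFF3 stood at 20.8 to 120 at the same ages. The goblet list summed to 3.53, 23.8, 14.8, 38.4 and 5.88 in EECs against 2.95, 2.76, 4.78, 12.4 and 3.79 in other epithelial barcodes, and the part of captured goblet RNA in this was not tested.

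Finally the hormone classes were compared with each other, over 3447 genes in the libraries with at least 5 cells of a class, which were d0 and d1 for the SST class, d0, d1 and d21 for the PYY/GCG class and all 5 for the remaining class. The hormones that made the classes and the chromogranins were not tested. CHGA stood at 11.4, 21.4 and 46.1 UMIs per 10000 counts in the SST, PYY/GCG and remaining classes, and CHGB at 4.74, 17.2 and 57.2. Both were lowest in the SST class, but a cell without PYY, GCG or SST had to reach its 5 UMIs through CHGA and CHGB while other cells needed 1, so the rule itself sets part of this order.

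Between the SST and PYY/GCG classes 2 genes were higher in the SST class (0.0580%) and 11 lower (0.319%), and edgeR gave 262 genes at an unadjusted p under 0.05. The higher genes were ISL1 and, named after its values were seen, the globin gene HBB with 160 UMIs in the SST class, higher in 1 of the 2 libraries with both classes. ISL1, a LIM homeodomain factor (chromosome 16, 30962994 to 30974201), stood at 4.47 and 2.34 in the SST class at d0 and d1 and at 0.707, 0.352 and 6.85 in the PYY/GCG class at d0, d1 and d21. Its log2 fold change was 2.45 (SE 0.36, adjusted p = 0.00302), a call lost without d0 (2.43, adjusted p = 0.85) or without d1 (2.51, adjusted p = 0.23).

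HHEX, a homeobox factor known from somatostatin cells of the pancreas (chromosome 14, 104194424 to 104199684), had 14 and 12 UMIs in the SST class and 0, 0 and 1 in the PYY/GCG class, but at an adjusted p of 0.0512 it did not pass. It did pass as lower in the remaining class than in the SST class (-4.90, SE 0.79, adjusted p = 0.00393), a call lost without d0 (-4.21, adjusted p = 0.96).

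The genes lower in the SST class were led by 2 that had no count there. HOPX, a small homeodomain protein gene, stood at 13.2, 5.27 and 18.8 in the PYY/GCG class, at least 105-fold higher, and its call (adjusted p = 9.7e-05) held under every alternative. NTS stood at 145, 0.141 and 79.1 there, at least 778-fold higher, though the call was lost without d0 (adjusted p = 1) and most of its counts came from single cells. UCN3 was lower in the SST class by -4.65 (SE 0.46, adjusted p = 1.0e-04), at 0.549 and 0.0557 against 10.2, 2.88 and 6.51.

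SCG2 was lower in the SST class too, at 0.784 and 0.223 against 15.2, 16.6 and 65.7, or -5.56 (SE 0.65, adjusted p = 3.9e-04). This call was lost without d0 (-6.70, adjusted p = 0.12) or d1 (-4.87, adjusted p = 0.070). NEUROD1 was lower at 0.157 and 0.334 against 2.70, 2.32 and 2.40, or -3.52 (SE 0.49, adjusted p = 0.00188), again lost without d0 (-3.04, adjusted p = 0.71) or d1 (-4.22, adjusted p = 0.073). PCSK1N, which encodes the PCSK1 inhibitor proSAAS, was lower by -5.25 (SE 0.60, adjusted p = 3.9e-04), with 3 UMIs in the SST class. FXYD3 (-2.86), FXYD2 (-1.95), SPON2 (-3.06), REG4 (-4.55) and LOC100517891 (-6.21) completed the 11, and each of these 5 calls was lost without d0 (adjusted p = 0.47, 1, 0.47, 0.47 and 0.26).

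Some serotonin genes were higher in the remaining class than in the hormone classes, namely 2 of 6 monoamine genes tested against the PYY/GCG class (TPH1 and SLC18A1, list median 1.69) and 3 of 6 against the SST class (TPH1, SLC18A1 and DDC, list median 2.08). The medians of all genes were 0.05 and 0.04. The filter on low counts was not examined for the class comparisons. TPH1 had 941 UMIs in the remaining class, 13 in the PYY/GCG class and 5 in the SST class. SLC18A1 had 235, 4 and 5. Such genes can pass the filter through the remaining class alone, so the list counts and medians are no support for a direction. Against the PYY/GCG class 27 genes were higher (0.783%) and 47 lower (1.36%), and against the SST class 30 were higher (0.870%) and 15 lower (0.435%). TPH1 stood at 5.30, 4.71, 10.5, 8.01 and 2.88 in the remaining class from d0 to d21, at 0 and 0.279 in the SST class, and at 0, 0.914 and 0 in the PYY/GCG class. The log2 fold change was 3.59 (SE 0.70, adjusted p = 0.0129) against the PYY/GCG class and 5.09 (SE 0.89, adjusted p = 0.00716) against the SST class. Without d0 these were 2.80 (adjusted p = 0.18) and 4.23 (adjusted p = 0.18), so both calls rest on that library. DESeq2 gave no call against the SST class for TPH1, SLC18A1 or DDC (adjusted p = 0.081, 0.18 and 0.081), and the DDC call (2.69) was also lost without d0 (adjusted p = 0.62) or d1 (adjusted p = 0.70).

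SLC18A1 was higher against both classes, by 3.05 and 2.75, and LMX1A by 4.13 and 3.24, with both genes again below the threshold without d0 (SLC18A1 at adjusted p = 0.30 and 0.85, LMX1A at adjusted p = 0.26 and 0.92). Without d1 the calls against the SST class were lost as well (SLC18A1 at adjusted p = 0.53, LMX1A at adjusted p = 0.10). TAC1 was higher against the PYY/GCG class by 4.22 (SE 0.73, adjusted p = 0.00496), lost without d0 (4.06, adjusted p = 0.083), and stood at 2.00, 2.53, 6.33, 32.9 and 16.9 in the remaining class and at 0, 0.422 and 0 in the PYY/GCG class.

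Several genes of hormone storage and lineage were lower in the remaining class. ISL1 was lower by -4.44 (SE 0.45, adjusted p = 6.4e-05) against the PYY/GCG class and by -6.89 (SE 0.40, adjusted p = 5.8e-07) against the SST class, with 8 UMIs in 259 cells. SCGN, the calcium sensor secretagogin, was lower by -7.94 (SE 0.54) and -8.03 (SE 0.60), with 2 UMIs in the remaining class against 1.67, 1.55 and 14.4 per 10000 counts in the PYY/GCG class and 2.67 and 1.39 in the SST class. UCN3 (-3.62, SE 0.31) and CPE, a carboxypeptidase that trims hormone precursors (-3.08, SE 0.38), were lower than in the PYY/GCG class. These ISL1, SCGN, UCN3 and CPE calls held without any single library. The calls of PCSK1N (-2.27), PAM (-2.19) and VGF (-1.86) against the PYY/GCG class were lost without d0 (adjusted p = 0.088, 0.065 and 0.78) or d1 (adjusted p = 0.052, 0.081 and 0.23). INSL5 had no count in the remaining class and was at least 72.6-fold higher in the PYY/GCG class, where its counts lay at d0 and d1.

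NEUROD1 and SCG2, lower in the SST class above, were higher in the remaining than in the SST class, by 3.97 (SE 0.46, adjusted p = 2.7e-04) and 3.89 (SE 0.61, adjusted p = 0.00314). The NEUROD1 call was lost without d0 (3.60, adjusted p = 0.15), and that of SCG2 without d0 (4.78, adjusted p = 0.36) or d1 (3.11, adjusted p = 0.65). PAX4 was higher in the remaining class against both others (2.12 and 3.44), with adjusted p of 0.39 and 0.18 without d0 and of 0.24 and 0.96 without d1. PAX6 (-3.24) and ETV1 (-2.28) were lower than in the PYY/GCG class, with adjusted p of 0.21 and 0.12 without d0.

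ABCC8 and GPBAR1, which encode the sulfonylurea receptor and a bile acid receptor, were lower in the remaining than in the SST class, by -4.40 (SE 0.89, adjusted p = 0.0194) and -4.83 (SE 0.94, adjusted p = 0.0161). The ABCC8 call held without d1, d7 or d14, and without d0 or d21 the gene was too sparse to be fitted. The GPBAR1 call was lost without d0 (adjusted p = 1) or d1 (adjusted p = 0.13). OLFM4, a marker of crypt stem cells, was higher in the remaining than in the PYY/GCG class (6.06, SE 0.58, adjusted p = 3.9e-05), at 0.844, 6.23, 7.88, 58.4 and 33.9 against 0, 0.141 and 0.342. A single cell at d14 and another at d21 supplied 916 and 396 of the 921 and 553 OLFM4 counts of EECs in those libraries. In the other epithelial barcodes OLFM4 stood at 0.231, 3.22, 23.0, 67.7 and 33.0, so there, as in the remaining class, its lowest level was at d0.

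**Figure D5:**
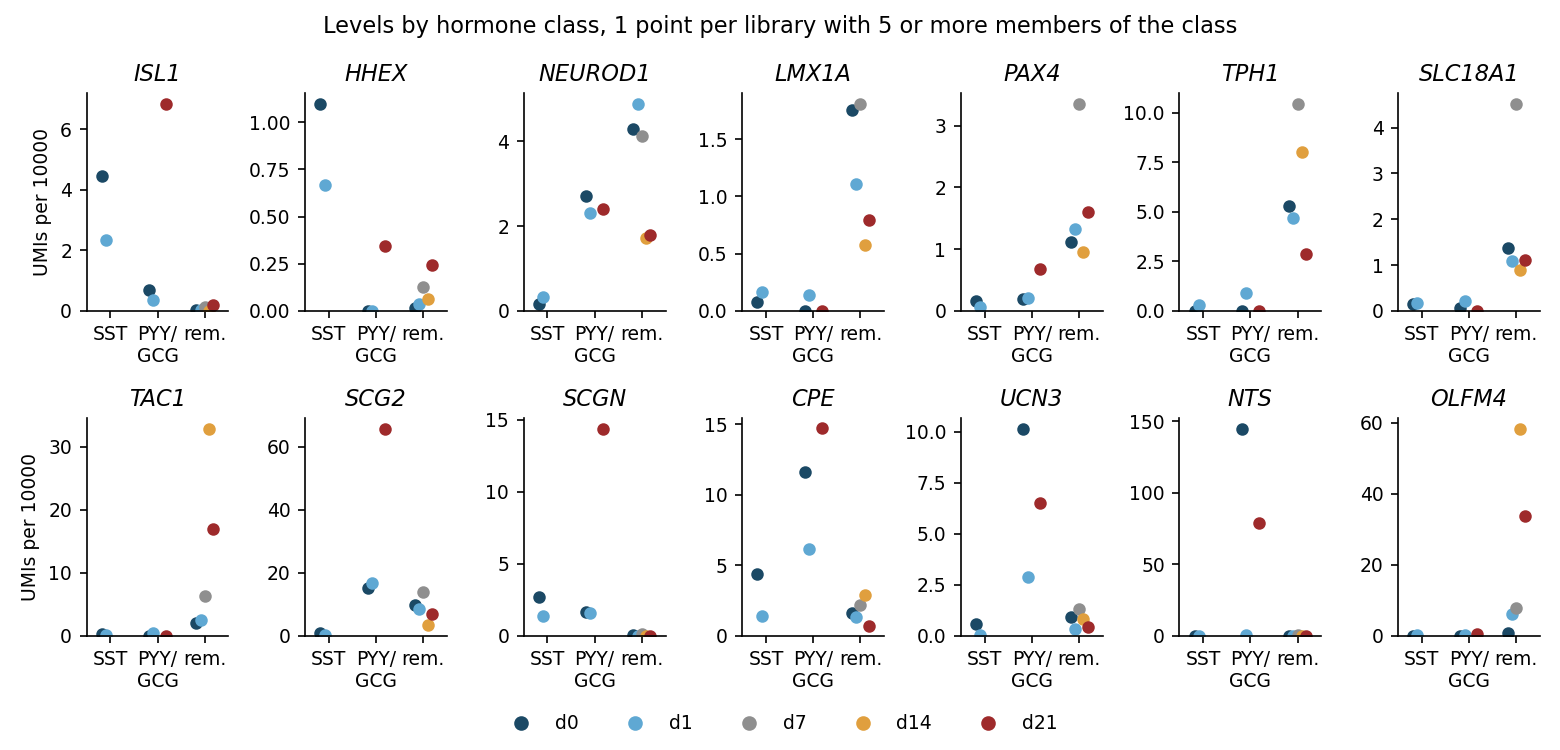
Levels of 14 genes (vertical axes, UMIs per 10000 counts) by hormone class, with 1 point per library that holds at least 5 cells of the class, which are d0 and d1 for the SST class, d0, d1 and d21 for the PYY/GCG class and all 5 for the remaining class. ISL1 and SCGN lie near 0 in the remaining class, while TPH1, LMX1A and SLC18A1 lie above both other classes there.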

How the data were processed

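The authors made the UMI counts with Cell Ranger 3.1.0 and STAR, for which no version is given in the sources used here, on Sscrofa11.1, and deposited raw counts for 20648 genes per library without normalization. The labels and the methods name different versions of the 10x kit, and the forced cell number of the methods is below the 10824 to 16975 barcodes in the matrices. Barcodes with under 200 genes were left out. The members and gene lists were chosen with earlier results of these data known, and 217 of the 220 listed genes were in the matrices. Results for some genes named by the rule below are not reported here.

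Goblet barcodes had at least 5 UMIs over MUC2, CLCA1, SPINK4 and FCGBP, and tuft barcodes at least 4 over POU2F3, SH2D6, GNG13 and AVIL, with 2 or more genes detected, and T cell barcodes had 2 or more UMIs over CD3E, CD3D and CD3G and none of EPCAM. Levels are summed UMIs per 10000 counts. Sums of at least 5 cells per library and class were fitted with edgeR 4.0.16 in R 4.3.3 (filterByExpr, TMM, quasi-likelihood test, Benjamini-Hochberg adjustment). DESeq2 1.42.0 was an alternative. With library as a block, the p-values measure the spread of class differences between libraries of different ages. There were 5 libraries for EECs against other cells. Only 2 held both classes for comparisons with the SST class, and 3 for the remaining against the PYY/GCG class. Cells of 1 library share their source. Intervals were computed with SciPy 1.17.1. Named genes were the rule genes, hormone precursors with at least 20 UMIs, up to 5 called genes per list with the largest fold, and the 10 largest rises and 5 largest falls outside the lists. On simulated counts for EECs against other epithelial barcodes over 9145 genes, 49 of 49 genes raised by 2 and 42 of 48 lowered by 2 on the log2 scale were called, and 11 of 8951 unchanged ones. For the SST against the PYY/GCG class over 3136 genes, 34 of 49 and 16 of 44 were called, and 5 of 2949 unchanged ones. The simulation used a single fixed dispersion for all genes and means set by library. It held no sums dominated by single cells, so its rates do not carry over to the real tests. UMIs remove amplification copies.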

Additional observations from a re-analysis of the deposited data

Results flagged for a closer look

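At d7 most PYY counts lay outside the EECs. Barcodes with at least 10% of their UMIs from HBB and a UMI of ALAS2, AHSP or HBM, a rule chosen after the data were seen, numbered 144 in that library and held 902 PYY UMIs, 75.2% of its total. Their PYY level was 20.2 UMIs per 10000 counts (18.9 to 21.5), against 12.2 in the 15 EECs of d7. PYY was detected in 54 of the 144 (37.5%), with at most 107 UMIs in a barcode, while CHGA, CHGB, GCG, SST, SCG2 and NEUROD1 were all at 0 there. These barcodes are in no comparison above.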

How the results depend on the processing

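Each age was 1 library and the later ages rest on 11 to 16 EECs, which limits every value at d7, d14 and d21. No paired analysis was possible because replicate 1 is a single library at each age, so nothing pairs the ages. Within a library the cell classes were compared with the library as a block. Other rules for the EEC share moved it as follows. With epithelial barcodes without PTPRC as the denominator it was 1.43%, 2.49%, 1.68%, 3.00% and 1.02% from d0 to d21, beside the epithelial shares of 1.43%, 2.52%, 1.55%, 2.47% and 0.997%. Without EECs that had 2 or more UMIs of immune, stromal or neural markers it was 0.827% at d1, 0.0487% at d7, 0.0124% at d14 and 0% at d21, and with only the immune and stromal lists 0.891%, 0.0681%, 0.0124% and 0%. In both cases the denominator still held all barcodes. At d0 it was 1.99% under 20% mitochondrial counts and 1.32% with at least 500 genes, at d1 1.53% with the rule genes at 10 or more per 10000 UMIs, and without the CHGA or CHGB requirement 1.65% at d1 and 0.506% at d7. Higher and lower genes without the library block numbered 279 and 15 against other epithelial, 184 and 57 against tuft and 271 and 45 against goblet barcodes, 0 and 2 for SST against PYY/GCG (edgeR), 1 and 16 for remaining against PYY/GCG and 1 and 6 for remaining against SST. Without a filter on low counts lower genes numbered 1463 against other epithelial and 1287 against goblet barcodes, and the class comparisons gave 8 and 39, 106 and 77, and 83 and 26. DESeq2 gave 1 higher gene for SST against PYY/GCG, 24 lower for remaining against PYY/GCG and 12 higher for remaining against SST. Without the deepest EEC of each library 18 genes were lower for SST against PYY/GCG. Leaving out 1 library gave 434 to 703 higher and 195 to 597 lower genes against other epithelial, 255 to 459 and 148 to 422 against tuft, 432 to 779 and 233 to 711 against goblet barcodes, 1 to 8 and 4 to 36 for SST against PYY/GCG, 6 to 50 and 16 to 89 for remaining against PYY/GCG and 3 to 66 and 5 to 19 for remaining against SST. The lowest counts came without d0, or without d1 against goblet barcodes, and the highest without d21. Of the named calls 73 of 170 were lost without the block, among them NTS, HES6 and PRAP1 against other epithelial barcodes, UCN3, ISL1, NEUROD1 and PCSK1N for SST against PYY/GCG, and TAC1, TPH1, OLFM4 and INSL5 for remaining against PYY/GCG. APOA4 changed direction with DESeq2, to 0.72 against other epithelial and 0.48 against goblet barcodes, and was not called there. For 27 of the 170 calls at least 1 alternative gave no value, since the gene was filtered out or DESeq2 gave no adjusted p. For remaining against PYY/GCG, DESeq2 gave a value for only 6 of the 18 named calls, and these 6 were kept. The cause of these changes was not tested. Class shares stayed within their counting intervals under the 3 alternatives, but at d14 the PYY/GCG share was 45.5% where 1 UMI made a class and 18.2% where 10 did, against 27.3%, and the remaining share was 45.5% with 1 UMI, against 63.6%. Of 95 hormone gene levels 55 moved when levels of single EECs were averaged.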

Other observations

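NTS was also found in barcodes without enteroendocrine genes. At d7, 39 barcodes outside the EECs had at least 5 UMIs of NTS, a limit chosen after the data were seen, and held 985 NTS UMIs, 89.5% of the library's total, where the 15 EECs held 31. They also held 728 UMIs of TAC3, 216 of IL22, 229 of IL7R and 1009 of LTB, genes known from lymphoid cells apart from the tachykinin precursor TAC3. PTPRC was detected in 26 of the 39 and EPCAM in 4, and CHGA, CHGB and SCG2 were at 0. At d0, d1, d14 and d21 such barcodes numbered 6, 5, 20 and 27.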
